A study of Mus musculus with 6 samples.

Results

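The 9 genes described here encode the carrier that brings pyruvate into mitochondria (Mpc1, Mpc2), core subunits of the pyruvate dehydrogenase complex (Pdha1, Pdhb, Dlat, Dld), a kinase and a phosphatase that switch the complex off and on (Pdk2, Pdp1), and pyruvate carboxylase (Pcx). They were taken by symbol from a deposited table of 11768 genes, in which all 9 were listed. Quadriceps muscle of mice on normal chow was compared between 3 libraries labelled Control f/f, from mice that carry the floxed Drp1 gene, and 3 labelled mDrp1HET, also called Drp1-KD, from mice heterozygous for a muscle-specific knockout of Drp1. Drp1, encoded by Dnm1l, constricts and splits mitochondria, and the title of the series names complex II assembly and the oxidation of fatty acids as its subjects. The labels do not state the promoter that drove the recombinase (the library names hold the letters mck, which they do not explain), nor the sex or age of the mice. Nor do the labels state that each library came from its own animal, so every p-value refers to variation among libraries, which may be technical.

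Pyruvate made in the cytosol crosses the inner mitochondrial membrane through a carrier built of the paired proteins Mpc1 and Mpc2. In the matrix the pyruvate dehydrogenase complex turns it into acetyl-CoA, and pyruvate carboxylase turns it into oxaloacetate. Pyruvate dehydrogenase kinases phosphorylate the E1 alpha subunit and stop the complex, phosphatases restore it, and in skeletal muscle this switch sets the balance between carbohydrate and fat as fuel.

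The 6 columns held 5 separate libraries. Control replicate 1 and mDrp1HET replicate 3 gave reads in a ratio of exactly 2 for 11334 of the listed genes (96.3%), against at most 81 genes for any other pair, and are treated as a single shared library of unknown group. The main comparison, called the 4-library comparison, therefore set mDrp1HET replicates 1 and 2 against Control replicates 2 and 3, and the comparison of 3 against 3 columns as labelled is given beside it. Recovered reads ranged from 10394761 to 64728022 per column, and the 9 genes had between 445 and 26648 reads each. Dnm1l, the targeted gene, lay at 6.95 and 6.87 log2 CPM (log2 of reads scaled to a common library total) in Control replicates 2 and 3 and at 7.30 and 6.73 in mDrp1HET replicates 1 and 2, and did not pass the threshold (log2 fold change 0.11, 95% interval -0.40 to 0.62, adjusted p = 0.843 with limma). The samples expressed all 11 muscle fibre markers searched, summing to 168291 and 169868 CPM in the 2 Control libraries and to 129967 and 125935 CPM in the 2 mDrp1HET libraries. Such a sum is led by its most abundant genes, and 5 of the 11 had a log2 fold change above 0 (median -0.11). Myh4, a myosin heavy chain, was at 16.27 and 16.44 log2 CPM in Control replicates 2 and 3. In mDrp1HET replicates 1 and 2 it was at 15.31 and 15.62, while the log2 fold change was -0.19 for Acta1 and 0.18 for Ckm. In bulk muscle, fewer cells of a type and less RNA per cell cannot be told apart. The median log2 fold change of all genes, mDrp1HET over Control, was 0.20 in the 4-library comparison, so the main differences are also given relative to that shift.

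The reads of Mpc1 have to be read together with those of a near-identical copy, and the sequences below show why. Mpc1 lies on chromosome 17 (GRCm38, GENCODE M21, 8282904 to 8297661, plus strand). Mpc1-ps, a processed pseudogene on chromosome 12 (110858565 to 110858894, minus strand) that overlaps Zfp839 on the opposite strand, is a row of its own in the table. Its 330 bases match the whole coding sequence of Mpc1 except for 1 base against transcript Mpc1-208 (G41A) and 2 bases against transcript Mpc1-201 (G41A and T75G). Positions are counted from 1 at the A of the start codon, with the base of Mpc1 first and that of Mpc1-ps last. The first 120 bases of each are printed with both positions in capitals, from the GENCODE M21 transcripts.
Mpc1-201: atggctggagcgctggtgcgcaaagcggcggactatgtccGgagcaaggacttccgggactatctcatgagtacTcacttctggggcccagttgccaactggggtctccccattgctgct
Mpc1-208: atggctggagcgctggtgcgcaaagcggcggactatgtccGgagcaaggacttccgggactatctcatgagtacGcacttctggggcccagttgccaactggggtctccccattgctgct
Mpc1-ps: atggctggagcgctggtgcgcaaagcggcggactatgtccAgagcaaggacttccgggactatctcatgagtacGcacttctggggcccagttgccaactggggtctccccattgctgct
From base 76 to base 330 the 3 sequences were identical over 255 bases. A read from that stretch fits both genes equally well. The stretch is only a part of Mpc1, whose annotated exons together cover 1470 bases, while Mpc1-ps is annotated over 330 bases. How the authors assigned such reads is not stated, so the values under either name alone are uncertain, and the sum of both is given as well.

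Mpc1, a carrier subunit that mitochondrial pyruvate uptake requires, was the 1 member of 9 that passed the threshold in the 4-library comparison, against a background of 0.187% of all genes. It lay at 7.60 and 7.13 log2 CPM in Control replicates 2 and 3 and at 8.59 and 8.80 in mDrp1HET replicates 1 and 2. The groups did not overlap, and the shared library, at 5.45, lay below all 4 of these libraries. The Control mean was 7.36 ± 0.34 (SD, n = 2) and the mDrp1HET mean 8.69 ± 0.15 (SD, n = 2). This is a log2 fold change of 1.33 (SE 0.22, 95% interval 0.84 to 1.82, adjusted p = 0.0463 with limma), 2.51-fold higher, or 1.13 above the shift of all genes. As labelled, with the shared library on both sides, Mpc1 differed by 0.89 (SE 0.82, adjusted p = 0.771 with limma), the authors' deposited table gave it a p of 0.522, and 0 of 9 members passed against a background of 0.0%. By unadjusted p under 0.05 there were also 0 members in the comparison as labelled, against a background of 3.9% of genes, and voom called 0.

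The call on Mpc1 lay close to the threshold, and its adjusted p ranged from 0.000536 to 0.99 over the 24 alternatives tried with limma. It was lost without Control replicate 3 (log2 fold change 1.09, adjusted p = 0.277 with limma), after median centring (1.16, adjusted p = 0.17) and with the shared library placed in mDrp1HET (0.25, adjusted p = 0.99) or in Control (1.96, adjusted p = 0.108).

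**Figure D1:**
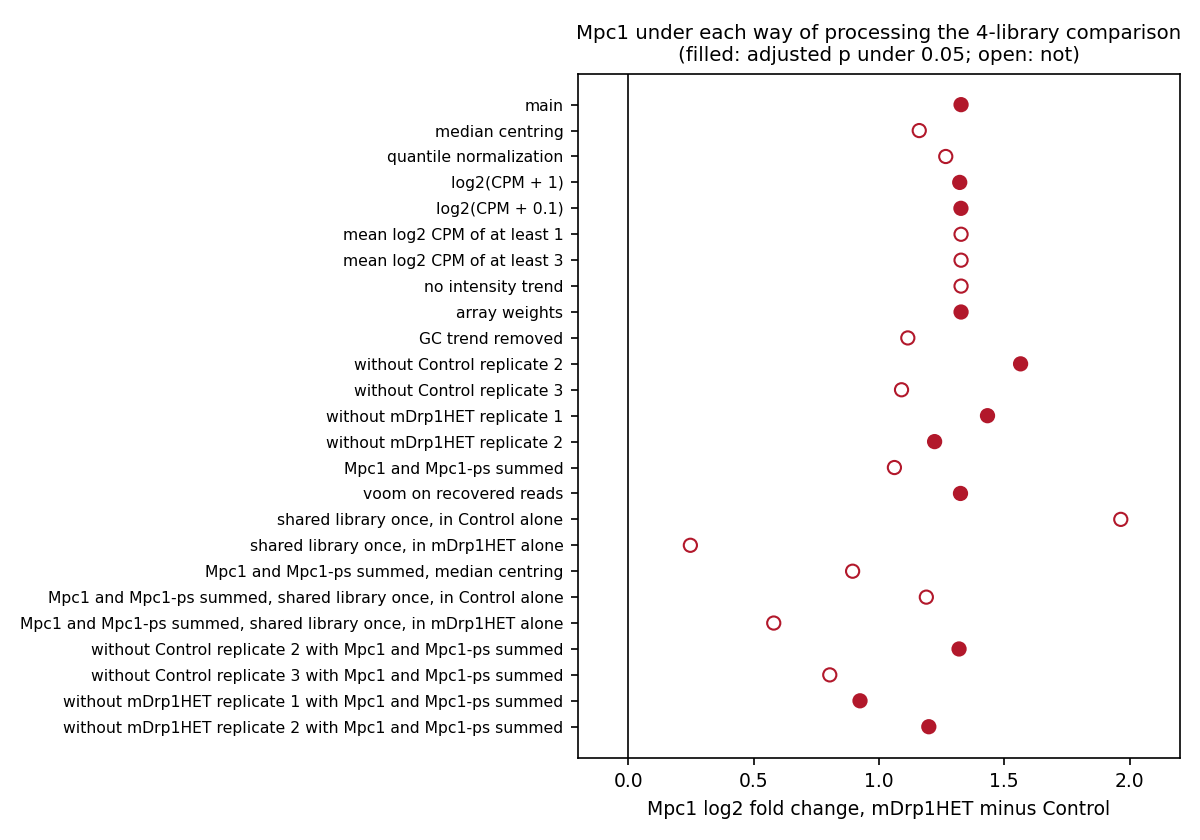
The horizontal axis gives the log2 fold change of Mpc1 (or of Mpc1 plus Mpc1-ps, where the row says summed) between mDrp1HET and Control, with 1 point for each way of processing, filled where the limma adjusted p was under 0.05. All points lie above 0, from 0.25 with the shared library placed in mDrp1HET to 1.96 with it placed in Control.

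The reads were split between Mpc1 and its copy in proportions that differed between libraries. In Control replicate 2 Mpc1 lay at 194.1 CPM and Mpc1-ps at 137 CPM, so that Mpc1 held 58.6% of their sum. Its share was 60.3% in Control replicate 3 (139.7 against 91.9 CPM) and 60.4% in mDrp1HET replicate 1 (384 against 252 CPM). Both of these libraries and Control replicate 2 thus had nearly the same split, while the other two did not. In mDrp1HET replicate 2 the share was 84.6% (445 against 81.0 CPM), and in the shared library it was 20.6% (43.8 against 169 CPM). The low Mpc1 value of the shared library therefore went with a Mpc1-ps value above those of both Control libraries.

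Added together, Mpc1 and Mpc1-ps lay at 331 and 232 CPM in Control replicates 2 and 3, at 636 and 526 CPM in mDrp1HET replicates 1 and 2, and at 212.5 CPM in the shared library. The shared library then lay next to Control replicate 3 instead of far below it. The groups of the 4-library comparison still did not overlap, and the sum was 2.09-fold higher in mDrp1HET (log2 fold change 1.06, SE 0.23, 95% interval 0.55 to 1.57). With all 4 libraries that difference did not pass the threshold (adjusted p = 0.0856 with limma, background 0.178% of genes with the rows summed). Mpc1-ps by itself gave a log2 fold change of 0.35 (95% interval -0.56 to 1.25, adjusted p = 0.699 with limma), and its groups overlapped.

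**Figure D2:**
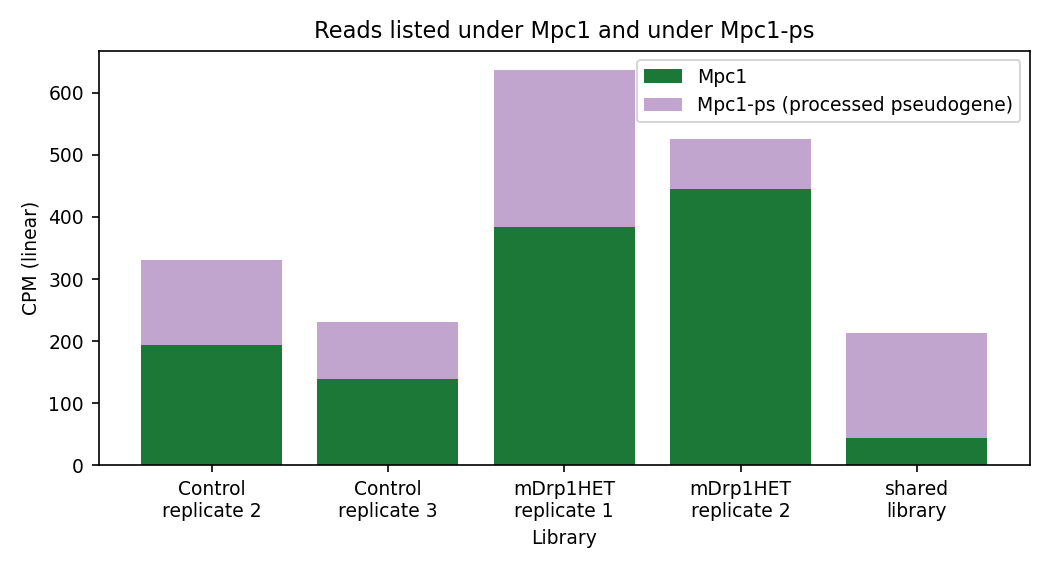
Bars give CPM on a linear axis from 0 for each of the 5 separate libraries, with reads listed under Mpc1 (green) stacked below those listed under Mpc1-ps (violet). The summed bars reach 636 and 526 CPM in mDrp1HET against 331 and 232 CPM in Control and 212.5 CPM in the shared library, and the violet part is the larger only in the shared library.

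Mpc2, the partner subunit (chromosome 1, 165460637 to 165481214, plus strand), did not pass. It lay at 6.13 and 5.35 log2 CPM in Control replicates 2 and 3, at 6.34 and 5.97 in mDrp1HET replicates 1 and 2, and at 5.62 in the shared library. The groups overlapped, and Control replicate 3 was the lowest of the 5 libraries. The log2 fold change was 0.42 (SE 0.27, 95% interval -0.18 to 1.02, adjusted p = 0.455 with limma). It moved between 0.033 without Control replicate 3 and 0.81 without Control replicate 2, and was 0.074 once the trend of each library on transcript GC content had been removed. Mpc2 matches the processed pseudogene Gm31931, which was not listed, at 91.4% over 221 bases.

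Because a ratio within a library does not depend on its total, Mpc1 was also set against Mpc2. The log2 ratio was 1.48 and 1.78 in Control replicates 2 and 3, 2.24 and 2.82 in mDrp1HET replicates 1 and 2, and -0.16 in the shared library. Both mDrp1HET ratios were above both Control ratios by a mean of 0.91, with an exact two-sided permutation p = 0.333, which is the smallest that 2 against 2 libraries can give. With Mpc1-ps added to Mpc1, the ratio was 2.25 and 2.51 in Control, 2.97 and 3.06 in mDrp1HET and 2.11 in the shared library, a difference of 0.64.

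None of the core subunits of the dehydrogenase complex passed in either comparison. Pdha1, the catalytic E1 alpha subunit that the kinases phosphorylate (chromosome X, 160122209 to 160138413, minus strand), lay at 9.07 and 8.60 log2 CPM in Control replicates 2 and 3 and at 8.77 and 8.09 in mDrp1HET replicates 1 and 2. The shared library, at 8.69, lay between the 2 libraries of either group. The groups overlapped, and the log2 fold change was -0.40 (SE 0.26, 95% interval -0.98 to 0.17, adjusted p = 0.454 with limma), or -0.60 relative to all genes. It moved between -0.064 without mDrp1HET replicate 2 and -0.74 without mDrp1HET replicate 1, and was -0.67 with the GC trend removed. Pdha1 had 2 listed partners that share sequence or position with it, 4930519F09Rik and Map3k15, and both were at most at 2.55 log2 CPM.

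Pdhb, the E1 beta subunit (chromosome 14, 8165996 to 8173025, minus strand), was at 7.37 and 6.93 log2 CPM in Control replicates 2 and 3 and at 7.45 and 6.92 in mDrp1HET replicates 1 and 2. The shared library was at 7.00, and the 2 groups covered almost the same range. Its log2 fold change was 0.032 (SE 0.24, 95% interval -0.50 to 0.57, adjusted p = 0.962 with limma), a value whose sign turned under 6 of 16 alternatives. Pdhb matches the processed pseudogene Gm6123 at 97.0% over 1079 bases. Gm6123 was not among the listed rows, and how reads that fit both were assigned is not stated. Dlat, the E2 core that carries the lipoyl arms and passes the acetyl group to coenzyme A (chromosome 9, 50634633 to 50659780, minus strand), was at 7.26 and 6.60 log2 CPM in Control, at 6.95 and 6.31 in mDrp1HET and at 6.84 in the shared library. The groups overlapped, and its log2 fold change was -0.30 (SE 0.28, 95% interval -0.91 to 0.31, adjusted p = 0.61 with limma). Dld, the E3 subunit that reoxidizes the lipoyl groups and also serves the other 2-oxoacid dehydrogenases (chromosome 12, 31331277 to 31351453, minus strand), was at 8.94 and 8.43 in Control, at 8.79 and 8.36 in mDrp1HET and at 8.56 in the shared library. Its groups overlapped as well, with a log2 fold change of -0.11 (SE 0.24, 95% interval -0.64 to 0.42, adjusted p = 0.85 with limma). With the GC trend removed, Dld was at -0.54 and Dlat at -0.53.

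The spread of these subunits lay mostly between libraries of the same group. Pdha1, Dlat, Dld and Pdhx, the E3-binding subunit, all had the same order, with Control replicate 2 highest, followed by mDrp1HET replicate 1, the shared library, Control replicate 3 and mDrp1HET replicate 2. Pdhb differed from that order only in that mDrp1HET replicate 1 came before Control replicate 2. Averaged over the 5 genes, Control replicate 2 lay 0.36 and mDrp1HET replicate 1 lay 0.20 above the mean of the libraries, while the deviation was -0.15 in Control replicate 3 and -0.37 in mDrp1HET replicate 2. Markers of slow fibres showed the same pairs of libraries as high and low within each group. Myh7, the slow myosin heavy chain, was at 3.56 and 1.31 log2 CPM in Control replicates 2 and 3 and at 7.34 and 2.18 in mDrp1HET replicates 1 and 2. Ldhb, the lactate dehydrogenase chain of oxidative tissue, was at 7.10 and 4.21 in Control and at 6.87 and 3.62 in mDrp1HET. This order was not particular to slow fibres. Summed markers of endothelium were at 341 and 222 CPM in Control replicates 2 and 3 and at 296 and 199 CPM in mDrp1HET replicates 1 and 2. Those of macrophages, adipocytes and red blood cells had the same order, while those of fibro-adipogenic progenitors and of all muscle fibres did not have it in both groups. The part of fibre type or of other cell types in the spread of the subunits was not tested.

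**Figure D3:**
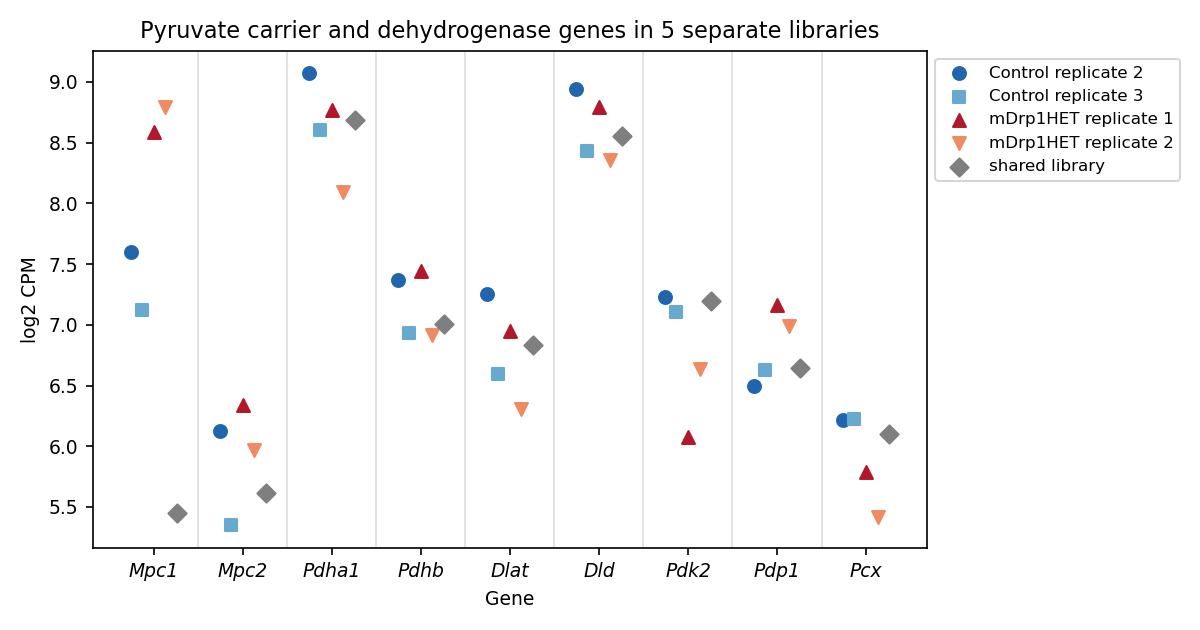
The vertical axis gives log2 CPM for each of the 9 genes, with 1 symbol per separate library (blue Control, red and orange mDrp1HET, grey the shared library). The mDrp1HET symbols lie apart from the Control symbols for Mpc1 and Pdp1 (higher) and for Pdk2 and Pcx (lower), and the grey symbol lies below all others for Mpc1.

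Ratios between the subunits were compared within libraries as well. The log2 ratio of Pdha1 to Pdhb was 1.70 and 1.67 in Control replicates 2 and 3, 1.33 and 1.18 in mDrp1HET replicates 1 and 2, and 1.68 in the shared library. The shared library thus lay within the Control values, and both mDrp1HET libraries lay lower by a mean of 0.43. The exact permutation p was 0.333, the smallest possible for 2 against 2, and 0.2 for the 3 against 3 columns as labelled, where 0.1 is the smallest. Dld over Dlat differed by 0.19 without overlap (exact permutation p = 0.333), and Dlat over Pdha1 by 0.10 with overlap (exact permutation p = 0.667).

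The regulators had the groups apart in opposite directions, though neither passed the threshold. Pdk2, a pyruvate dehydrogenase kinase found in most tissues (chromosome 11, 95026258 to 95041354, minus strand), lay at 7.23 and 7.10 log2 CPM in Control replicates 2 and 3 and at 6.08 and 6.64 in mDrp1HET replicates 1 and 2. Both mDrp1HET libraries were below both Control libraries, and the shared library, at 7.19, lay between the Control values. The log2 fold change was -0.81 (SE 0.23, 95% interval -1.32 to -0.30, adjusted p = 0.162 with limma), or -1.01 relative to all genes. Without mDrp1HET replicate 2 the value was -1.09 and passed (adjusted p = 0.0125 with limma, in a range of 0.0125 to 0.97 over its alternatives), and without mDrp1HET replicate 1 it was -0.53. Gm11513, an antisense gene that overlaps Pdk2, was not among the listed rows, and whether the counting used strand is not given in the sources used here.

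Pdp1, the catalytic subunit of a pyruvate dehydrogenase phosphatase (chromosome 4, 11958184 to 11966452, minus strand), lay at 6.50 and 6.63 log2 CPM in Control replicates 2 and 3, at 7.17 and 6.99 in mDrp1HET replicates 1 and 2, and at 6.64 in the shared library. Both mDrp1HET libraries were the highest of the 5. The log2 fold change was 0.52 (SE 0.21, 95% interval 0.07 to 0.96, adjusted p = 0.255 with limma), or 0.31 relative to all genes. Once the dependence on transcript GC content had been taken out of every library it was 0.044 (adjusted p = 0.93 with limma, in a range of 0.114 to 0.97 over its alternatives).

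The log2 ratio of Pdk2 to Pdp1 set a kinase against a phosphatase of the complex. It was 0.74 and 0.47 in Control replicates 2 and 3 and 0.55 in the shared library, against -1.09 and -0.35 in mDrp1HET replicates 1 and 2. The kinase was thus the higher of the pair, in CPM, in the 3 former libraries and the lower in the 2 latter. The mean log2 ratios differed by -1.32 (-0.95 without mDrp1HET replicate 1, -1.70 without mDrp1HET replicate 2). The exact permutation test gave p = 0.333 (the smallest possible) and p = 0.2 for the columns as labelled. A ratio does not cancel a trend on GC content, and the transcripts of Pdk2 and Pdp1 hold 56.9% and 39.2% GC. No ratio was computed with the GC trend removed, where Pdk2 alone was at -0.81 and Pdp1 alone at 0.044. Adjusted over the 6 ratios none could pass at this number of libraries. The ratio leaves out the kinases Pdk4 and Pdk1 and the phosphatase Pdp2. Their groups overlapped, with log2 fold changes of 0.23, 0.21 and 0.28 in the 4-library comparison.

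**Figure D4:**
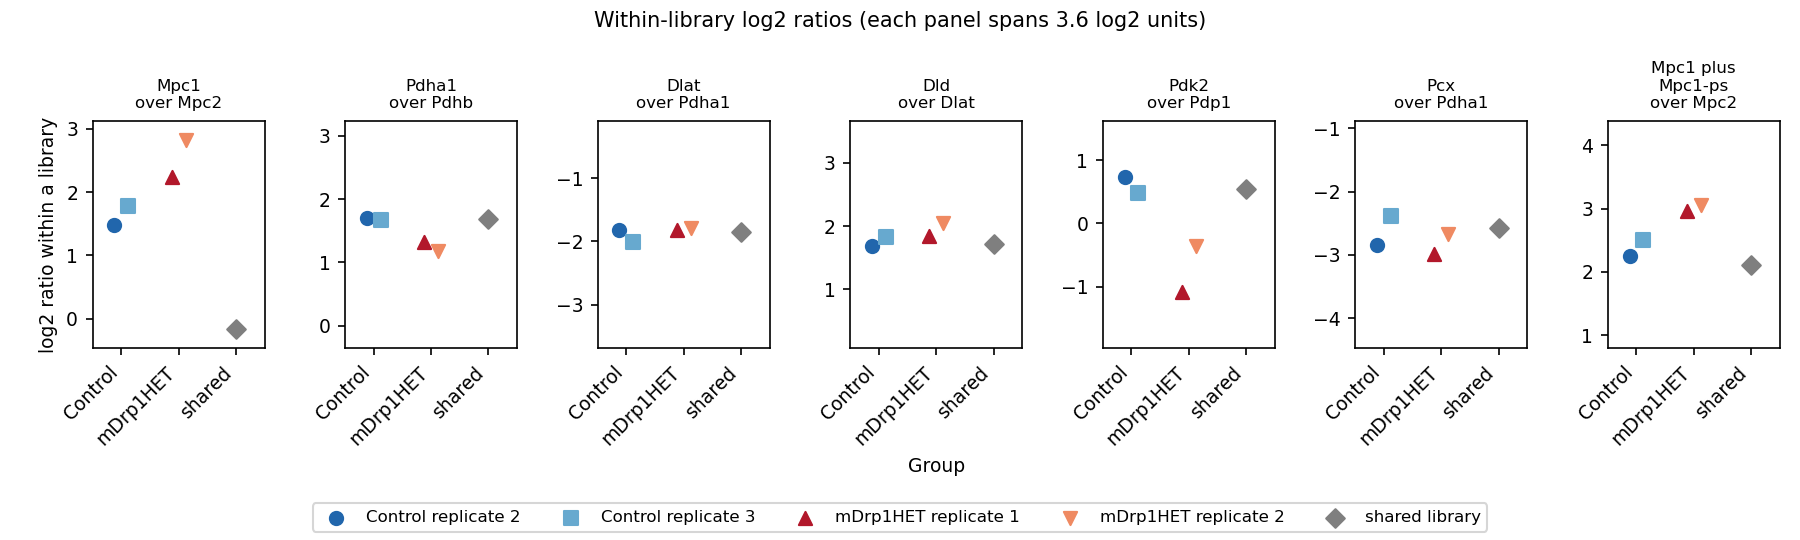
Each panel gives the log2 ratio of 2 genes (in the last panel of the sum of Mpc1 and Mpc1-ps over Mpc2) within each library, for Control replicates 2 and 3, mDrp1HET replicates 1 and 2 and the shared library, and all panels span the same height. The ratio of Pdk2 to Pdp1 is above 0 in both Control libraries and the shared library and below 0 in both mDrp1HET libraries, while Dlat over Pdha1 and Pcx over Pdha1 overlap between the groups. The ratios are of CPM and are not scaled to gene length, so the place of 0 has no meaning of its own.

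Pcx, pyruvate carboxylase, which makes oxaloacetate and needs biotin (chromosome 19, 4510472 to 4621752, plus strand), lay at 6.22 log2 CPM in both Control replicates 2 and 3, at 5.79 and 5.42 in mDrp1HET replicates 1 and 2, and at 6.10 in the shared library. Both mDrp1HET libraries were the lowest of the 5. The log2 fold change was -0.62 (SE 0.22, 95% interval -1.10 to -0.13, adjusted p = 0.229 with limma), or -0.82 relative to all genes. The ratio of Pcx to Pdha1 overlapped between the groups and differed by -0.21 on the log2 scale (exact permutation p = 0.667). Lrfn4, a listed gene that overlaps Pcx on the other strand, was at most at 1.48 log2 CPM.

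In all, 2 of the 9 genes were higher in both mDrp1HET libraries than in both Control libraries (Mpc1 and Pdp1), against a background of 38.6% of all genes. Another 2 were lower without overlap (Pdk2 and Pcx), against a background of 11.3%; in either direction this makes 4 of 9, against 49.9%. The same 4 had an unadjusted limma p under 0.05, where the background was 13.3% of genes higher, 3.26% lower and 16.6% in either direction. The median log2 fold change of the 9 genes was -0.11, beside 0.20 for all genes, and 6 of the 9 lay below the latter. The sign of the members' median turned when 1 library was left out, with 0.15 without Control replicate 2 and 0.11 without mDrp1HET replicate 2, against -0.36 without Control replicate 3 and -0.32 without mDrp1HET replicate 1. As labelled, the medians were -0.072 and 0.13. For 8 of the 9 the shared library lay within the range of the other 4 libraries, the exception being Mpc1.

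**Figure D5:**
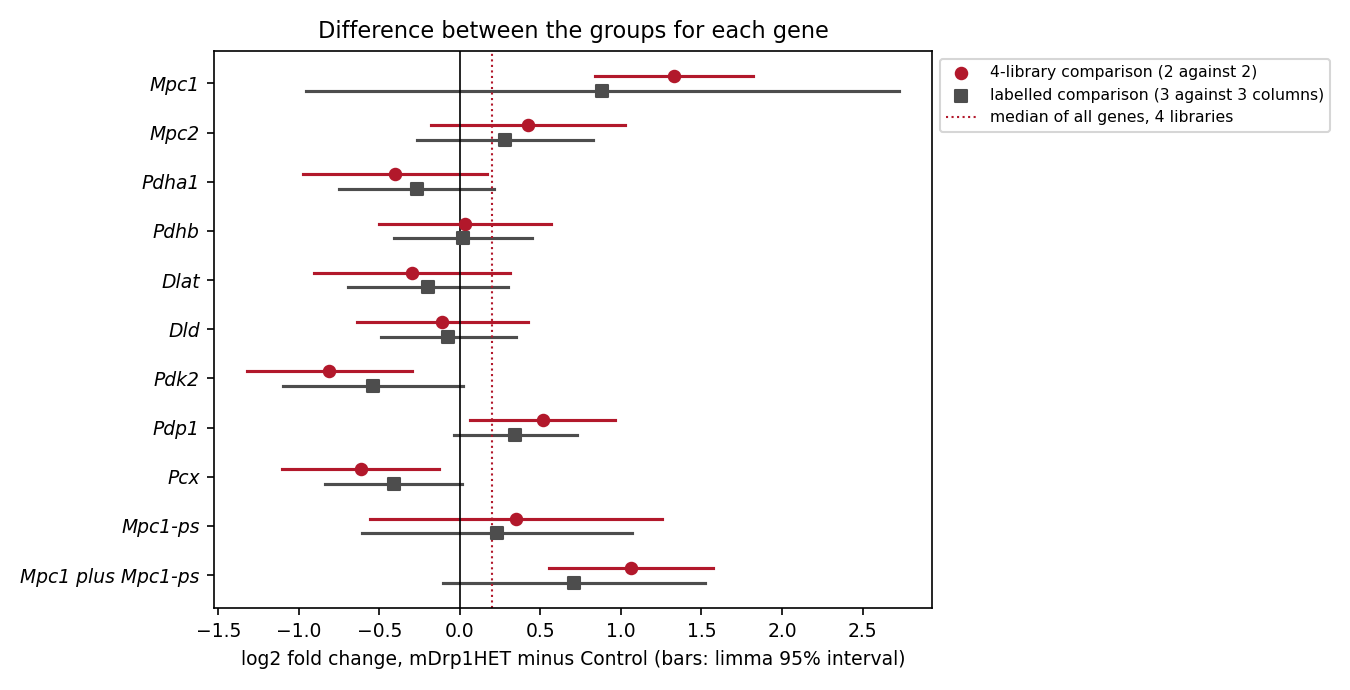
The horizontal axis gives the log2 fold change of mDrp1HET over Control with limma's 95% interval for the 9 genes, for Mpc1-ps and for the sum of Mpc1 and Mpc1-ps, in the 4-library comparison (red circles) and in the comparison as labelled (grey squares), and the dotted line marks the 0.20 median of all genes. The interval of Mpc1 in the 4-library comparison (0.84 to 1.82) lies above the dotted line, as does that of the sum (0.55 to 1.57), and those of Pdha1, Pdk2 and Pcx lie below it.

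Compared per kilobase of exon, the 9 genes had median levels over the 5 libraries between 148 and 16.2 CPM per kb. Dld (148) and Pdha1 (144.5) led, and their ranges of 129 to 193 and 96.0 to 189 CPM per kb overlapped. Mpc1 had a median of 132 CPM per kb but the widest range, 29.8 to 302.5, so its place in the order is not fixed by these libraries. Pdhb (84.8), Mpc2 (61.3), Pdk2 (61.2), Dlat (28.3) and Pdp1 (22.2) followed, and of these neighbours only Pdhb and Mpc2 had ranges that did not overlap, 80.0 to 115 against 39.8 to 79.2. Pcx was lowest at 16.2 (10.1 to 17.6) and did not overlap with Pdp1 (20.02 to 31.9). For scale, the range of the kinase Pdk4, 310 to 731 CPM per kb with a median of 564, lay above the highest value of every member, while its relative Pdk1 had a median of 13.7 CPM per kb.

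Among the genes whose profile over the 5 libraries was most like that of Mpc1 were Rps15a-ps5, Carnmt1, Rps23 and Rpl35a. Their root mean square differences from Mpc1, after each gene was centred on its mean, were 0.15, 0.23, 0.24 and 0.25 log2 CPM, while Mpc1 itself varied by 1.20 around its mean. Mpc2 differed from Mpc1 by 1.01 and Mpc1-ps by 1.40 on the same measure. Carnmt1, for example, lay at 6.40 and 6.30 log2 CPM in Control replicates 2 and 3, at 7.08 and 7.61 in mDrp1HET replicates 1 and 2 and at 4.05 in the shared library. Each of these 4 genes has at least 1 near-identical copy in the annotation (at least 90% identity over 200 bases), as Mpc1 has. Carnmt1 matches the pseudogene Gm8116 at 99.8% over 1201 bases. The share of all genes with such a copy was not computed, and the part of read assignment in this pattern was not tested.

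Around the 9 genes, 49 of 55 other listed genes of pyruvate metabolism were measured, and 0 passed with limma in either comparison. Their lowest limma adjusted p was 0.185 in the 4-library comparison and 0.753 as labelled. Unadjusted, 2 had a p under 0.05 with higher values and 2 with lower ones in the 4-library comparison, and 1 had such a p as labelled. The background was 13.3% of genes higher and 3.26% lower in the 4-library comparison and 3.9% in either direction as labelled. The median of their log2 fold changes was 0.035, beside 0.20 for all genes, and 19 of 49 lay above the latter.

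Of the other subunits, kinases and phosphatases of the complex 5 of 7 were measured. Pdk4, the kinase induced in muscle by fasting and fat, lay at 11.31 and 10.08 log2 CPM in Control replicates 2 and 3, at 10.94 and 10.92 in mDrp1HET replicates 1 and 2 and at 11.09 in the shared library. The mDrp1HET values lay between the Control values, and the log2 fold change was 0.23 (95% interval -0.50 to 0.97, adjusted p = 0.758 with limma). Pdhx differed by -0.16 (SE 0.25), Pdk1 by 0.21 (SE 0.25) and Pdpr, the regulatory subunit of the phosphatase, by -0.34 (SE 0.23).

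Among the 11 measured genes of pyruvate and lactate supply, Ldha, the lactate dehydrogenase chain of glycolytic muscle, gave 0.44 as its log2 fold change (SE 0.22, adjusted p = 0.345 with limma) with both mDrp1HET libraries highest. Bsg, the partner that brings lactate carriers to the cell surface, gave 0.52 (SE 0.20, adjusted p = 0.249 with limma) and Pkm, pyruvate kinase, -0.49 (SE 0.23). Lipoic acid arms the E2 subunit, and of 12 measured genes for its synthesis and attachment Ndufab1, the mitochondrial acyl carrier protein, gave -1.18 (SE 0.60) and Mcat 0.54 (SE 0.30). Of 6 measured genes of thiamine and biotin supply, Hlcs, which attaches biotin to carboxylases, gave -0.44 (SE 0.31).

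The median log2 fold change was 0.020 over 8 measured genes of other 2-oxoacid dehydrogenases and 0.22 over 7 of acetyl-CoA use and export, beside 0.20 for all genes, and 0 genes of either list passed with limma. Ogdh, the E1 subunit of the 2-oxoglutarate dehydrogenase complex, gave -0.71 (SE 0.22, adjusted p = 0.185 with limma), lower in both mDrp1HET libraries than in both Control libraries. Crat, which buffers acetyl-CoA as acetylcarnitine, gave -0.71 (SE 0.22, adjusted p = 0.194 with limma), and Cs, citrate synthase, -0.42 (SE 0.23), both also without overlap. Dhtkd1, another 2-oxoacid dehydrogenase E1, gave 0.56 (SE 0.35) at a low level.

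Markers of other cell types differed between the same libraries, though 0 passed with limma in any of the 6 lists. By unadjusted p under 0.05, 4 of 8 markers of fibro-adipogenic progenitors, 3 of 7 of macrophages, 2 of 6 of adipocytes, 2 of 3 of red blood cells and 1 of 11 of muscle fibres were higher (background 13.3% of genes). By the same measure 3 of 11 markers of muscle fibres and 1 of 7 of endothelium were lower (background 3.26%). The 8 markers of fibro-adipogenic progenitors summed to between 1338 and 1929 CPM in the 2 Control libraries and to between 2493 and 2512 CPM in the 2 mDrp1HET libraries. Macrophage markers, 7 of 8 measured, summed to between 105 and 171 CPM in Control and to between 198 and 221 CPM in mDrp1HET. Endothelial markers overlapped (222 to 341 against 199 to 296 CPM), as did those of adipocytes (75.9 to 199 against 159 to 288 CPM) and red blood cells, 3 of 5 measured (57.3 to 103 against 92.8 to 183 CPM). No measured marker was at 0, since every listed gene exceeded 1 CPM in each library. The part of these cell types in the differences of Mpc1, Pdk2, Pdp1 and Pcx was not tested.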

How the data were processed

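Total RNA from frozen quadriceps with an integrity number above 7 was depleted of ribosomal RNA, made into stranded libraries and sequenced in 2 pools, per the labels' protocols; which library was in which pool is not given. The authors deposited log2 CPM values and a p-value per gene, per the file headers. FastQC, DESeq2 1.30.0 and the build GRCm38 appear in the submitters' processing notes. Aligner and read counter: not given in the sources used here. Linear values sum to the same total in every column. Each column has a constant step per read, which gave back whole reads for 100% of values (tolerance 0.01 reads). Other columns of per-sample values numbered 0.

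Genes were tested two-sided by limma 3.58.1 (R 4.3.3) with a variance trend on intensity, fitted to all 11768 genes with Benjamini-Hochberg adjustment over all of them and a threshold of 0.05. Ratios had an exact two-sided permutation test. The code was checked on simulated data. The genes named are the 9 members; in each other list every gene past the threshold, otherwise the 2 with the smallest p, plus Pdk4, Pdhx and Ldha; and the 5 genes most like Mpc1. The values of 2 genes that this rule takes are not reported here; both are kept in all counts. Ldhb, Myh7, Pdp2, Mpc1-ps and the overlapping genes were named after their values were seen. Members and lists were chosen with earlier results of these data known. Near-identical copies were found with BLAST 2.17.0 among GENCODE M21 transcripts (at least 90% identity over at least 200 bases). Exon lengths are the union of GENCODE exons.

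Alternatives tried were quantile normalization, median centring, offsets of 1 and 0.1 CPM, minimum means of 1 and 3 log2 CPM, no intensity trend, array weights, removal of the trend on transcript GC content (loess, span 0.3), each library left out, and the shared library in either group alone. Chosen after seeing the data were the sum of Mpc1 with Mpc1-ps and voom (limma) on recovered reads. Count models, planned for the case that whole reads could be recovered, were not run, and voom on those reads stands in their place.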

Additional observations from a re-analysis of the deposited data

How the results depend on the processing

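Over the 9 members and all alternatives of both comparisons, 263 of 297 values kept their direction and their side of the threshold. With 2 libraries per group the number of calls moved with each library left out, and each lone library left in a group is assumed to vary like the other group. The cause of the shifts below was not tested.

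For Mpc1 (log2 fold change 1.33 in the 4-library comparison) the call was lost after median centring (1.16), quantile normalization (1.27), removal of the GC trend (1.12), both minimum means (1.33, adjusted p = 0.051 with limma and 0.0573), without the intensity trend (1.33, adjusted p = 0.212 with limma), with the shared library in Control (1.96) or in mDrp1HET (0.25), and when summed with Mpc1-ps (1.06). Summed, it was 0.90 after median centring and 1.19 or 0.58 with the shared library in Control or in mDrp1HET. Leaving out each library gave 1.09 to 1.57, and 0.80 to 1.32 when summed. Without Control replicate 3 the call on Mpc1 was lost (1.09) and the sum was at 0.80. The sum, not called with all 4 libraries, passed without Control replicate 2, mDrp1HET replicate 1 or mDrp1HET replicate 2 (limma adjusted p = 0.0488, 0.0229 and 0.0113).

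Genes called numbered 22, against 0 after median centring (also when summed), without the intensity trend and after removal of the GC trend, 1 after quantile normalization, 2 with the shared library in either group (also when summed), and 51 with voom. Leaving out each library gave 77 to 325 (77 to 324 when summed). In these fits 147 genes were called without Control replicate 2, 77 without Control replicate 3, 299 without mDrp1HET replicate 1 and 325 without mDrp1HET replicate 2. Members called numbered 1, against 0 under each setting that ended the call on Mpc1, and 0 to 2 with each library left out, the 2 being Mpc1 and Pdk2 without mDrp1HET replicate 2. Genes called as labelled numbered 0, and 2 without Control replicate 1 or without mDrp1HET replicate 3 (0 to 2 over all libraries left out). The called genes in other lists numbered 0 to 1 with each library left out: 1 gene of pyruvate and lactate supply without Control replicate 3, and 1 of lipoate synthesis without Control replicate 3 and 1 without mDrp1HET replicate 1.

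Directions turned for small values. Pdhb (0.032) was -0.13 after median centring, -0.093 after quantile normalization, -0.21 without the GC trend, -0.027 with the shared library in mDrp1HET, and -0.23 to 0.30 with each library left out (-0.19 without Control replicate 3, -0.23 without mDrp1HET replicate 1). As labelled (0.021) it was -0.090, -0.062 and -0.14 under the first 3 settings, -0.092 with array weights, and -0.14 to 0.15 with each library left out (-0.028, -0.063 and -0.14 without Control replicate 1, Control replicate 3 and mDrp1HET replicate 1). With each library left out, Dlat (-0.30) ranged from -0.63 to 0.033, Dld (-0.11) from -0.36 to 0.15 and, as labelled, Dld (-0.072) from -0.18 to 0.077. The values above 0 came from leaving out Control replicate 2 or mDrp1HET replicate 2, which gave 0.033 or 0.020 for Dlat, 0.15 or 0.11 for Dld and 0.077 or 0.033 for Dld as labelled. The log2 ratio of Pcx to Pdha1 (-0.21) was 0.023 without Control replicate 3, in a range of -0.45 to 0.023. The medians of all genes were 0.035 after median centring, 0.013 after quantile normalization and -0.0022 without the GC trend.

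No paired analysis was possible because the replicate numbers only name the libraries in accession order. The planned count models (quasi-likelihood and size factor tests) were not run.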
